A study of Rattus norvegicus with 14 samples.

Results

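The miR-30 family was followed in pancreatic islets of control female rats (4 arrays) and of female rats on day 14 of gestation (4 arrays). Its members were taken by name: every miRNA on the array called miR-30a, miR-30b, miR-30c, miR-30d or miR-30e, on either strand and from any gene copy, which gave 11 of the 350 rat miRNAs. Total RNA of the islets was labelled with cyanine 3 and read on 1-colour miRNA arrays. Arrays within a group are labelled as biological replicates, but no animal, strain, age or pooling is given, so each p-value rests on array-to-array spread that may be partly technical. No treatment other than pregnancy is named, and the islets were not sorted, so fewer cells of a type and less RNA per cell cannot be told apart.

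A miRNA hairpin is cut by Drosha and Dicer into a short duplex. One strand, the guide, is usually kept by Argonaute and steers it to messenger RNAs that pair with the seed, bases 2 to 8 of the miRNA. The other strand, called the passenger or star strand, is mostly degraded, although some star strands are also loaded. The miR-30 guides share 1 seed and so share many predicted targets. In cultured human pancreatic cells the family has been tied to the epithelial state, and in a mouse beta-cell line miR-30d responds to glucose and raises insulin gene expression. During pregnancy, maternal beta cells multiply and secrete more insulin under placental lactogen and prolactin.

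The mature sequences are shown because the seeds divide the family into guides and star strands, and because the guides are so alike that their probes may bind each other's targets. Sequences came from RefSeq (build GRCr8), which matched 6 of the 11 members. They are written 5′ to 3′ with the seed in capitals.
miR-30a: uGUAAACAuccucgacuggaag
miR-30e: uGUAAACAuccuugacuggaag
miR-30c: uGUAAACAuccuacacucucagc
miR-384-5p: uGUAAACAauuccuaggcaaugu
miR-30a*: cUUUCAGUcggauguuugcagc
miR-30c-1*: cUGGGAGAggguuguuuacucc
miR-30c-2*: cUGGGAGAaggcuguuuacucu
MiR-30a and miR-30a* lie at chr9:33233946-33233967 and chr9:33233987-33234008 on the plus strand, and miR-30c-2* at chr9:33253735-33253756 on the plus strand. MiR-30e and miR-30c-1* lie at chr5:139637504-139637525 and chr5:139634467-139634488 on the minus strand. Counted from 1 at the 5′ end, miR-30a and miR-30e differ by the single substitution C13U, while miR-30a and miR-30c are identical at 17 of 22 compared positions. The star strands miR-30c-1* and miR-30c-2* differ by G9A, U12C and C22U. Outside the family, 1 other rat miRNA in the sequence table carries the guide seed, miR-384-5p on chromosome X. MiR-30b-5p, miR-30b-3p, miR-30d, miR-30d* and miR-30e* are described by name.

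The hairpins form 3 genomic pairs. Mir30a and Mir30c2 are neighbours on chromosome 9 with 19.7 kb between their hairpins, Mir30b and Mir30d are neighbours on chromosome 7, and Mir30c1 and Mir30e lie 2.9 kb apart on chromosome 5 within the span of Nfyc, which encodes a subunit of the transcription factor NF-Y. The mature guide miR-30c is the same from Mir30c1 and Mir30c2, so its signal cannot be divided between chromosomes 5 and 9.

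Signals are given as normalised signal, in arbitrary units: each array was scaled so that the 153 miRNAs detected on every one of the 8 arrays had a common 75th percentile. The summed unnormalised signal of the arrays ran from 148467 to 229760, and 157 to 188 miRNAs were detected per array by the deposited flag. The islet endocrine miRNAs miR-375, miR-7a, miR-7a* and miR-7b were all tested, with a summed normalised signal of 28056 to 33533 in control islets and 24230 to 31296 in pregnancy. All 8 arrays carry 1 slide number in the file headers, and each array name also holds a digit of 1 or 2 whose meaning no label or header gives, called the header digit here. Digit 1 marks 1 control array (replicate 2) and 3 pregnant arrays, and digit 2 marks 3 control arrays and 1 pregnant array (replicate 1).

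Of the 11 members, 8 were detected on at least 4 of the 8 arrays and were tested: the 5 guides and the star strands miR-30a*, miR-30c-2* and miR-30e*. MiR-30c-1* and miR-30d* were detected on no array. MiR-30b-3p was detected on control replicates 1 and 4 and pregnant replicate 4. Its normalised signal was 18.6, 10.6, 11.3 and 19.4 in control replicates 1 to 4 and 14.8, 10.3, 11.6 and 22.9 in pregnant replicates 1 to 4, so the control range lay within the pregnant range. Levels of different miRNAs are not set against each other here, since each has its own probes.

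The comparison asked which members differ between islets of pregnant and control rats. MiR-30a*, the star strand of the Mir30a hairpin, fell in pregnancy (log2 change -0.45, SE 0.10, 4 arrays per group, limma adjusted p = 0.0430). Among the 8 tested members 1 fell, 0 rose and 7 did not pass a limma adjusted p of 0.05, whereas 4.68% of the 171 tested miRNAs passed in either direction and 2.34% passed as lower. For miR-30a, miR-30a*, miR-30c and miR-30c-2* the highest of the 4 pregnant arrays was below the lowest of the 4 controls, as it was for 9.36% of all tested miRNAs. MiR-30c-2* entered the test through its control arrays, so the share was taken over miRNAs detected on all 8 arrays: 3 of 7 members (42.9%) were lower without overlap, against 9.8% of 153 miRNAs. No member was higher without overlap, against 5.26% of all tested miRNAs, so that 14.6% of all tested were apart in either direction. The same 4 members were those with an unadjusted limma p under 0.05, which 24.6% of all tested miRNAs had. These 4 are the strands that the chromosome 9 hairpins encode, with miR-30c also encoded on chromosome 5. For miR-30b-5p, miR-30d, miR-30e and miR-30e* the groups overlapped. The median log2 change was -0.03 over those 7 members and 0.0022 over those 153 miRNAs.

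**Figure D1:**
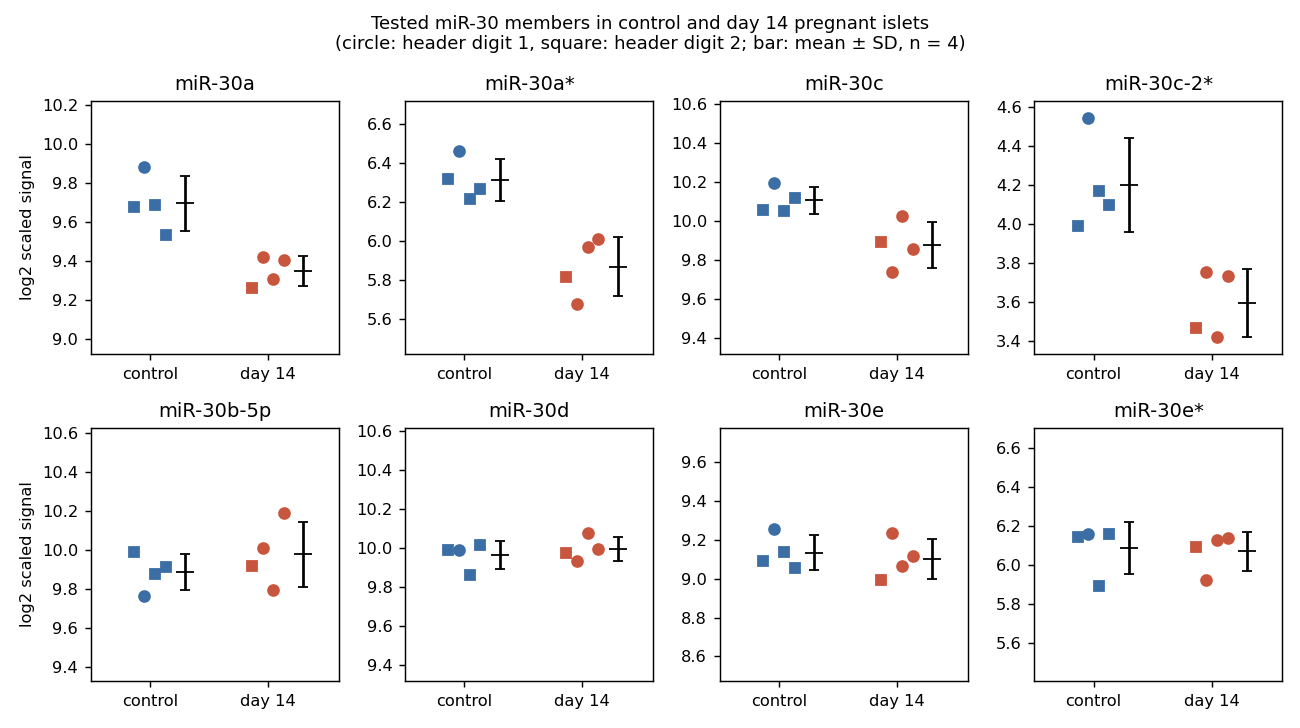
Log2 normalised signal of the 8 tested miR-30 members on each array, in control islets (blue) and day 14 pregnant islets (red), with circles for header digit 1, squares for header digit 2 and bars for the mean ± SD of 4 arrays. The groups are separate in the upper 4 panels and overlap in the lower 4, and every panel spans the same height.

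MiR-30a (rno-miR-30a on the array) is the guide of Mir30a. Its normalised signal was 819.8, 944.5, 825.1 and 742.4 in control replicates 1 to 4 and 614.3, 685.1, 634.4 and 678.7 in pregnant replicates 1 to 4. The highest pregnant array lay below the lowest control array, and control replicate 2 was the highest of all. The means were 833 ± 83.4 (SD, n = 4) and 653 ± 34.3 (SD, n = 4), a log2 change of -0.35 (SE 0.09, 95% interval -0.55 to -0.14), which did not pass (limma adjusted p = 0.0717).

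MiR-30a* (rno-miR-30a*), from the same hairpin, read 79.7, 88.0, 74.1 and 76.9 in control replicates 1 to 4 and 56.2, 51.2, 62.6 and 64.5 in pregnant replicates 1 to 4. Pregnant replicate 2 was lowest and control replicate 2 highest, with no overlap. The means were 79.7 ± 5.99 (SD, n = 4) and 58.6 ± 6.10 (SD, n = 4), which is 1.36-fold lower in pregnancy. The signals of this star strand lie near those of the brightest negative control feature, whose normalised signal ran from 20.7 to 55.1 on control arrays and from 53.2 to 74.7 on pregnant arrays. MiR-30a* was above that feature on every control array and on pregnant replicate 4, and below it on pregnant replicates 1, 2 and 3, although it was flagged as detected on all of them. The call for miR-30a* was lost with the authors' processed values (adjusted p = 0.225), quantile normalization (0.258) or a percentile over all 350 miRNAs (log2 change -0.29, adjusted p = 0.275). It was also lost when any 1 array other than pregnant replicate 2 was left out, with adjusted p from 0.0753 without pregnant replicate 4 to 0.141 without pregnant replicate 1.

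MiR-30c-2* (rno-miR-30c-2*), the star strand of the neighbouring Mir30c2, read 15.9, 23.4, 18.0 and 17.1 in control replicates 1 to 4 and 11.0, 13.5, 10.7 and 13.3 in pregnant replicates 1 to 4. Here too control replicate 2 was highest and the groups did not overlap. It was detected on 4 of 4 control arrays and 1 of 4 pregnant arrays (replicate 4), so it met the filter through the control group, 3 of its pregnant values are not above the detection limit, and on every array it was below the brightest negative control feature. The means were 18.6 ± 3.30 (SD, n = 4) and 12.1 ± 1.46 (SD, n = 4), and limma gave a log2 change of -0.61 that did not pass (adjusted p = 0.0568). With undetected values on 3 arrays, that figure does not measure the size of the difference, and the alternatives under which it passed carry the same limit.

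MiR-30c, the guide shared by Mir30c1 and Mir30c2, read 1064, 1174, 1063 and 1111 in control replicates 1 to 4 and 950, 853, 1044 and 926 in pregnant replicates 1 to 4. Pregnant replicate 3 came within 19.0 units of the lowest control array, so the separation is narrow. The log2 change was -0.23 (SE 0.08, 95% interval -0.41 to -0.04, limma adjusted p = 0.123), and it stood at -0.08 when arrays were scaled on all 350 miRNAs.

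MiR-30b-5p and miR-30d, the guides of the chromosome 7 pair, overlapped between the groups. MiR-30b-5p (rno-miR-30b-5p) read 1017, 870, 938 and 965 in control replicates 1 to 4 and 968, 1030, 887 and 1167 in pregnant replicates 1 to 4, with pregnant replicate 4 the highest and control replicate 2 the lowest. Its log2 change was 0.09 (SE 0.10, 95% interval -0.14 to 0.32, limma adjusted p = 0.607), and it ran from 0.021 without pregnant replicate 4 to 0.15 without pregnant replicate 3. MiR-30d (rno-miR-30d), the member studied for its link to insulin gene expression, read 1016, 1015, 929 and 1036 in control replicates and 1006, 975, 1078 and 1019 in pregnant replicates 1 to 4. The ranges overlapped broadly, with control replicate 3 lowest and pregnant replicate 3 highest. The log2 change was 0.03 (SE 0.07, 95% interval -0.12 to 0.18, limma adjusted p = 0.786).

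MiR-30e and miR-30e*, both strands of the hairpin in Nfyc, also overlapped between groups. MiR-30e ran from 531 to 612 in control islets and from 509 to 602 in pregnancy, a log2 change of -0.03 (SE 0.08, 95% interval -0.22 to 0.15, limma adjusted p = 0.804) that became 0.12 when arrays were scaled on all 350 miRNAs. MiR-30e* ran from 59.3 to 71.4 in control islets and from 60.7 to 70.4 in pregnancy. Its log2 change was -0.02 (SE 0.09, 95% interval -0.22 to 0.19, limma adjusted p = 0.904), and it became 0.13 when arrays were scaled on all 350 miRNAs and also with the authors' processed values or quantile normalization.

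**Figure D2:**
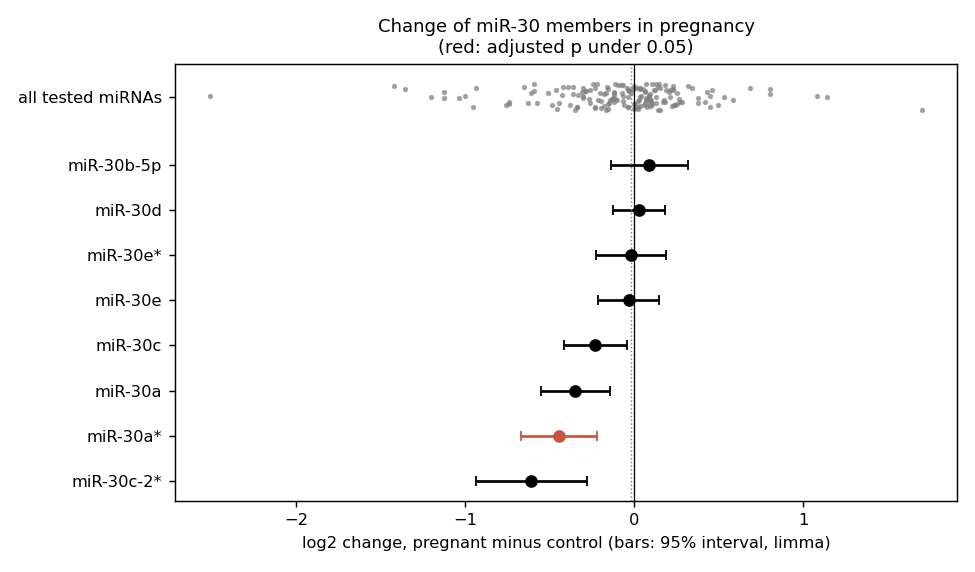
Log2 change from control to day 14 pregnant islets for the 8 tested miR-30 members (points, with 95% intervals from limma) beneath the changes of all 171 tested miRNAs (grey points, spread vertically for visibility), with a dotted line at the median of all tested. MiR-30a* (red) is the member with an adjusted p under 0.05, and the intervals of miR-30b-5p, miR-30d, miR-30e and miR-30e* cross 0.

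Scaling to the 75th percentile of all 350 miRNAs moved the median of the 171 tested miRNAs from -0.02 to 0.13, so changes were also read relative to that median. Relative to it, under that scaling, miR-30c-2* stood at -0.59, miR-30a* at -0.43, miR-30a at -0.33 and miR-30c at -0.21, the same as before, since a scaling factor shifts every miRNA of an array equally. MiR-30b-5p stood at 0.11, miR-30d at 0.05, miR-30e at -0.02 and miR-30e* at 0. In absolute terms, under that scaling the groups stayed apart for 2 of the 4 members (miR-30a and miR-30c-2*), where 2.92% of all tested miRNAs were lower without overlap. MiR-30b-5p was higher in pregnancy without overlap (log2 change 0.24, limma adjusted p = 0.204), as 9.36% of all tested miRNAs were. MiR-30c-2* met the filter through its control arrays and was detected on 1 of 4 pregnant arrays, so its separation carries that limit under every scaling. All 4 lower members, miR-30c-2* included, stayed apart with quantile normalization (7.6% of all tested) and with the authors' processed values (8.19% of all tested). These 2 sets of values are much alike, with miR-30e at -0.10 under each, so they are not separate checks.

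**Figure D3:**
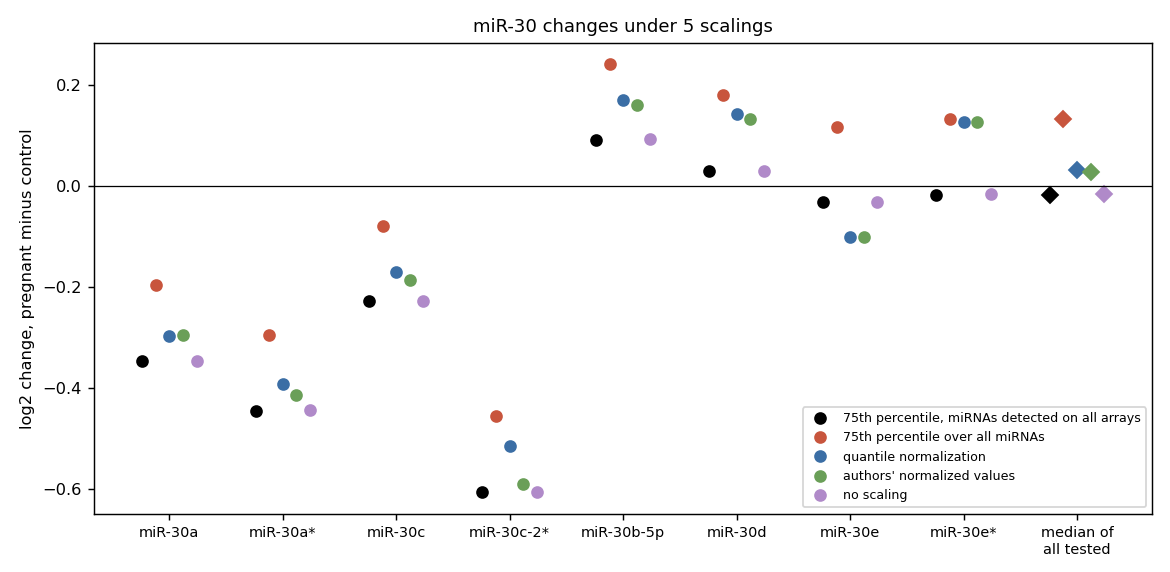
Log2 change from control to day 14 pregnant islets of the 8 tested miR-30 members (circles) and the median of all 171 tested miRNAs (diamonds) under 5 scalings. MiR-30a, miR-30a*, miR-30c and miR-30c-2* lie below 0 under all 5, while miR-30e and miR-30e* change sign between scalings.

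Among arrays of 1 header digit the groups compare 1 array with 3, and the only control of digit 1 is replicate 2, the highest array for miR-30a, miR-30a*, miR-30c and miR-30c-2*. Within digit 1 miR-30a differed by -0.50, miR-30a* by -0.57, miR-30c by -0.32 and miR-30c-2* by -0.91. Within digit 2 they differed by -0.37, -0.45, -0.18 and -0.62. Because these groups do not overlap, their direction within a digit is fixed and only the size could vary. MiR-30b-5p differed by 0.23 in digit 1 and -0.01 in digit 2, miR-30d by 0.01 and 0.02, miR-30e by -0.12 and -0.10, and miR-30e* by -0.09 and 0.03. With the digit as a block, a fit that rests on these same lone arrays, miR-30a (-0.44), miR-30a* (-0.51) and miR-30c-2* (-0.76) passed, at limma adjusted p-values of 0.0360, 0.0360 and 0.0326.

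To compare guide with star strand, the log2 ratio of both strands was taken within each array, which a single scaling factor per array does not move. The authors' processed values are normalized in another way and can move it. Exact permutation tests of 4 against 4 arrays (2-sided) cannot give a p below 0.0286, and p-values were adjusted over the 7 ratios tested here and in the genomic pairs. A single ratio at that smallest p would have an adjusted p of 0.2. For the Mir30a hairpin the log2 ratio of miR-30a over miR-30a* was 3.36, 3.42, 3.48 and 3.27 in control replicates 1 to 4 and 3.45, 3.74, 3.34 and 3.40 in pregnant replicates 1 to 4. The groups overlapped, with pregnant replicate 2 the highest, and the ratio changed by 0.10 (SE 0.10, exact permutation p = 0.429, adjusted p = 0.6), or by 0.011 without that array. A difference between the change of the guide and that of its star strand was therefore not shown for this hairpin.

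The ratio of miR-30c over miR-30c-2* was 6.07, 5.65, 5.88 and 6.02 in control replicates 1 to 4 and 6.43, 5.98, 6.61 and 6.12 in pregnant replicates 1 to 4. The shift was 0.38 (SE 0.17, exact permutation p = 0.0857, adjusted p = 0.4), with pregnant replicate 2 among the controls. With the authors' processed values it was 0.40 and the groups were apart (exact permutation p = 0.0286, adjusted p = 0.2). Both shifts rest on a star strand detected on 1 of 4 pregnant arrays, so their size is uncertain, and the guide is also made from Mir30c1. For the Mir30e hairpin the guide over star log2 ratio averaged 3.05 ± 0.16 in the controls and 3.03 ± 0.19 in the pregnant rats (SD, n = 4 each), a change of -0.02 (SE 0.12, exact permutation p = 0.914, adjusted p = 0.914). With the authors' processed values the change was -0.23 (exact permutation p = 0.4, adjusted p = 0.7).

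Within the genomic pairs the ratios overlapped between groups. For the chromosome 9 pair the log2 ratio of the guides miR-30a over miR-30c changed by -0.12 (SE 0.11, exact permutation p = 0.286, adjusted p = 0.6). That of the star strands miR-30a* over miR-30c-2* changed by 0.16 (SE 0.16, exact permutation p = 0.343, adjusted p = 0.6). Since miR-30c-2* was detected on 1 of 4 pregnant arrays, the star strand figure does not measure whether the 2 strands changed alike. For the chromosome 7 pair miR-30b-5p over miR-30d changed by 0.06 (SE 0.12, exact permutation p = 0.571, adjusted p = 0.667). For the chromosome 5 pair miR-30c over miR-30e changed by -0.20 (SE 0.11, exact permutation p = 0.114, adjusted p = 0.4), with the ratio at 0.97, 0.94, 0.92 and 1.07 in control replicates 1 to 4 and 0.90, 0.50, 0.96 and 0.74 in pregnant replicates 1 to 4. Pregnant replicates 1, 2 and 4 lay below all control arrays, and replicate 3 among them. The change was -0.09 with the authors' processed values and -0.11 without pregnant replicate 2.

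Ratios across loci were examined after the values were seen and are given as a description, with no test. Each sets a member whose groups were apart over a member whose groups overlapped. How often ratios of other miRNAs were apart was not computed, so these separations add no support beyond the members themselves. MiR-30a and miR-30e differ at 1 base, yet their log2 ratio was 0.59, 0.63, 0.55 and 0.48 in control replicates 1 to 4 and 0.27, 0.19, 0.25 and 0.29 in pregnant replicates 1 to 4. The groups were apart on the deposited signals, but overlapped with the authors' processed values, where the ratio ran from 0.44 to 0.59 in control islets and from 0.25 to 0.51 in pregnancy. The log2 ratio of miR-30a over miR-30d ran from -0.48 to -0.10 in control islets and from -0.76 to -0.51 in pregnancy. The star strand ratio of miR-30a* over miR-30e* ran from 0.11 to 0.32 in control islets and from -0.28 to -0.13 in pregnancy. It is less certain, since miR-30a* was below the brightest negative control feature on pregnant replicates 1, 2 and 3, and miR-30e* on pregnant replicate 3. The log2 ratio of the guides miR-30c over miR-30d ran from 0.07 to 0.21 in control islets and from -0.19 to -0.05 in pregnancy. These last ratios were also apart with the authors' processed values, where miR-30a over miR-30d ran from -0.42 to -0.11 and from -0.72 to -0.58.

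**Figure D4:**
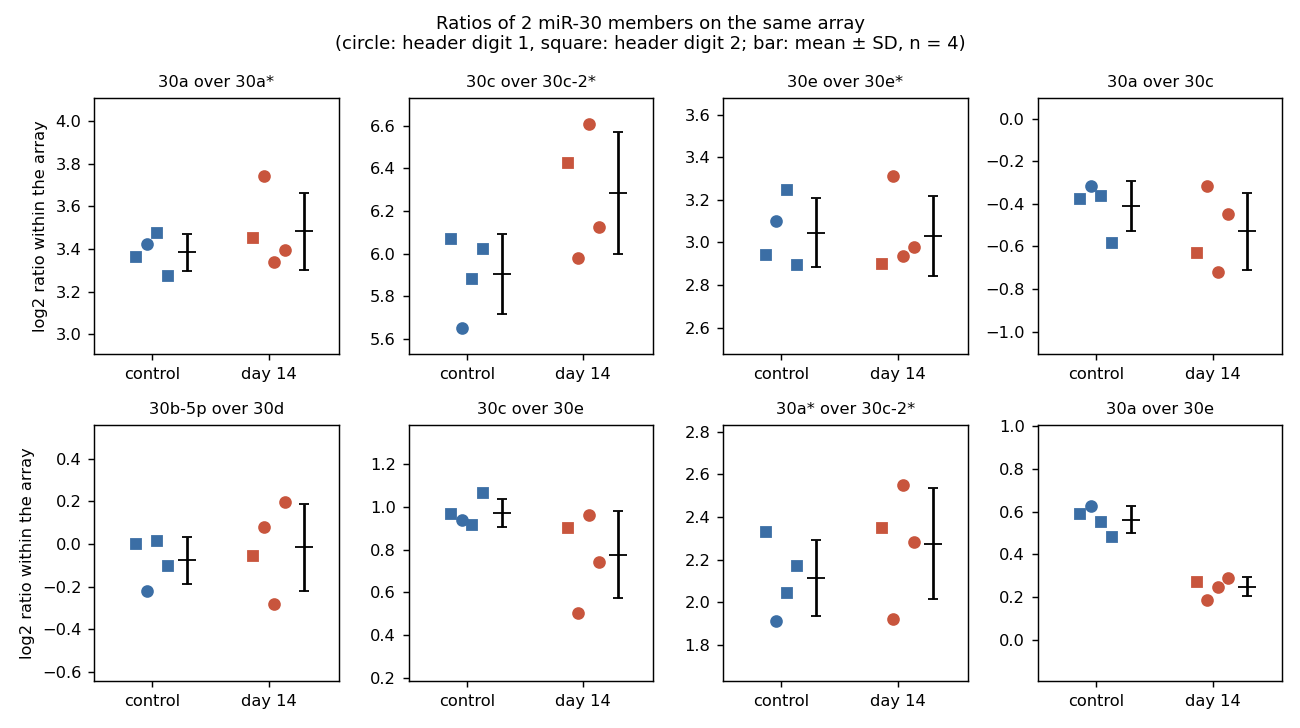
Log2 ratio of 2 miR-30 members on the same array in control islets (blue) and day 14 pregnant islets (red), with circles for header digit 1, squares for header digit 2 and bars for the mean ± SD of 4 arrays. The first 7 panels are the guide over star and genomic pair ratios, whose groups overlap, and the last is miR-30a over miR-30e, chosen after the values were seen, whose groups are apart.

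MiR-384-5p, which shares the guide seed but not the rest of the sequence, averaged 662 ± 50.3 units in the controls and 719 ± 46.4 in the pregnant rats (SD, n = 4 each). Its log2 change was 0.12 (SE 0.08, 95% interval -0.07 to 0.31, limma adjusted p = 0.416), and its groups overlapped. Among the guide-seed miRNAs measured, those with separate groups were thus miR-30a and miR-30c, and those with overlapping groups were miR-30b-5p, miR-30d and miR-30e by family and miR-384-5p by seed.

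The tested miRNAs whose pattern over the 8 arrays was most like that of miR-30a were sought by the mean absolute difference in log2 signal, each miRNA centred on its own mean. Outside the family these were miR-23a (0.06), miR-27a (0.08) and let-7i (0.10), and miR-30a* (0.09) ranked 3 of 170. For miR-23a limma gave -0.31 (SE 0.10, adjusted p = 0.123) as the log2 change, with overlapping groups, and for let-7i -0.21 (SE 0.06, adjusted p = 0.0852), with separate groups. For miR-30d the nearest were miR-186 (0.03), miR-598-3p (0.05) and let-7c (0.06), with miR-30e* (0.06) at rank 3 of 170. Of 170, the other family members ranked 15 (miR-30c), 24 (miR-30c-2*), 29 (miR-30e), 50 (miR-30e*), 52 (miR-30d) and 77 (miR-30b-5p) for miR-30a. For miR-30d the others ranked 42 (miR-30e), 52 (miR-30b-5p, its genomic neighbour), 60 (miR-30c), 98 (miR-30a), 113 (miR-30a*) and 132 (miR-30c-2*). The ranks of miR-30c-2* rest on a strand detected on 1 of 4 pregnant arrays.

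Of all 171 tested miRNAs 52% had a negative change and 4.68% were called by limma in either direction. Among 9 epithelial and islet-identity miRNAs outside the family on the array (the miR-200 family, miR-375 and miR-7), all 9 were tested, and 6 had a negative and 3 a positive change. By limma 0 were called in either direction, and the median log2 change was -0.10. The smallest p-values among them belonged to miR-7b, of the miR-7 family that is abundant in endocrine cells, at -0.36 (SE 0.11, limma adjusted p = 0.121), and to miR-200b, a repressor of Zeb factors, at -0.29 (SE 0.13, limma adjusted p = 0.212).

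Stromal and smooth muscle miRNAs had changes of the same sign as the lower miR-30 members, without a call. All 6 on the array (miR-143, miR-145, miR-10b, miR-214 and both strands of miR-199a) were detected on some array and 5 were tested. Of these, 5 had a negative log2 change (52% of all tested miRNAs did) and 0 were called by limma (4.68% of all tested were), with a median of -0.59. Their summed normalised signal ran from 1385 to 6897 in control islets and from 807 to 1712 in pregnancy. The highest value, 6897, belonged to control replicate 2, which was also the highest array for miR-30a, miR-30a*, miR-30c and miR-30c-2* and, among members whose groups overlap, for miR-30e. Without that array miR-30a differed by -0.28, miR-30a* by -0.40, miR-30c by -0.20, miR-30c-2* by -0.49 and miR-30e by 0.0087. The acinar miRNAs miR-216a and miR-217, the latter detected on no array, summed to 115 to 314 in control islets and 27.0 to 243 in pregnancy, and the erythroid miR-144 and miR-451 to 266 to 732 and 651 to 1653. The endothelial miR-126 and miR-126* summed to 1662 to 1776 in control islets and 1280 to 1736 in pregnancy. The leukocyte miRNAs miR-142-3p, miR-142-5p, miR-150 and miR-223 summed to 321 to 533 in control islets and to 241 to 4750 in pregnancy. The highest value was that of pregnant replicate 2, which was lowest for miR-30a* and miR-30c. Among pregnant arrays, that replicate was the highest for miR-30a, miR-30c-2* and miR-30e. Of these acinar, erythroid, endothelial and leukocyte miRNAs 0 were called by limma. The 1 tested acinar miRNA (log2 change -1.12) and the 2 endothelial miRNAs (median -0.15) also had negative changes. So did 3 of the 4 islet endocrine miRNAs (median over the 4 of -0.08). All tested erythroid and leukocyte miRNAs had positive changes (medians 1.42 and 0.25). The part of these other cells in the miR-30 values was not tested.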

How the data were processed

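Per the file headers, the authors deposited an unnormalized signal intensity and a detection flag for 350 miRNAs and 22 control features on 8 1-colour Agilent miRNA arrays, and a set of log2 values that the authors normalized between arrays by a method that the sources used here do not give. The deposited value table repeats those log2 values (largest difference 4e-10). Array names in the headers tied each column to its sample. The flag columns stand in another order than the signals, and each of the 8 fitted its own named array best.

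For each array the 75th percentile was taken over the 153 miRNAs that all 8 arrays detected, signals were divided by it and multiplied by the mean percentile, and log2 was taken after a floor of 0.81, the smallest scaled value with a detected flag. The 171 miRNAs detected on at least 4 of 8 arrays entered a 2-group limma model (version 3.58.1, R 4.3.3) with no block, and Benjamini-Hochberg adjustment ran over all 171. Ratios within arrays were compared by exact permutation tests. Both were tested on simulated data. Members of the family are all named. Outside it, the text names miRNAs with the same seed, the 3 nearest to miR-30a and to miR-30d, the lists, and up to 2 examples per list by smallest p. The members and lists were chosen with earlier results of these data known. Alternatives were other scalings, floors, detection filters, variance trend, blocks and left-out arrays. The number of arrays limits the precision. Similar miRNAs can bind each other's probes. The mRNA arrays of a cell line were not used here.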

Additional observations from a re-analysis of the deposited data

Results flagged for a closer look

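Over 30 groups of 4 arrays (8 members and 7 ratios in both groups), 1 had an array far from the others by Dixon's test, where chance flags about 1 in 20. The log2 signal of miR-30e* was 5.89 in control replicate 3 and 6.14 to 6.16 on the other control arrays. Without that array the log2 change of miR-30e* was -0.08.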

How the results depend on the processing

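The direction of miR-30a, miR-30a*, miR-30b-5p, miR-30c and miR-30c-2* held under every alternative run, and calls depended on the alternative. The call for miR-30a* was lost with scaling to all miRNAs (-0.29), quantile normalization (-0.39), no scaling (-0.44), the authors' processed values (-0.41), no detection filter (-0.45, more miRNAs tested) or a variance trend (-0.45, adjusted p = 0.0511). Leaving out 1 array at a time gave -0.49 to -0.38, and the call was kept only without pregnant replicate 2. MiR-30a passed with quantile normalization (-0.30), a variance trend (-0.35) or the header digit as a block (-0.44). MiR-30c-2* passed with quantile normalization (-0.51), the authors' values (-0.59) or the digit block (-0.76), and also without pregnant replicate 2 (-0.66). It ran from -0.68 to -0.49 with 1 array left out, on values undetected on 3 of 4 pregnant arrays. It could not be tested among miRNAs detected on all 8 arrays.

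Scaling to all miRNAs turned miR-30e to 0.12 and miR-30e* to 0.13, and miR-30e* was also 0.13 with quantile normalization and 0.13 with the authors' values. With 1 array left out, miR-30d ran from -0.0049 to 0.051, miR-30e from -0.076 to 0.0087, miR-30e* from -0.083 to 0.031, the ratio of miR-30e over miR-30e* from -0.11 to 0.052 and that of miR-30b-5p over miR-30d from -0.0087 to 0.15.

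Of the 171 tested miRNAs 8 were called. That count was 2 with scaling to all miRNAs, 0 without scaling, 0 without the detection filter and 23 with the digit block, and it ran from 0 to 19 with 1 array left out, the highest without pregnant replicate 2. The matching counts of miR-30 members, 1 as reported, were 0, 0, 0 and 3, with 2 under quantile normalization and 0 to 2 with 1 array left out. Members lower without overlap numbered 4 as reported, 2 with scaling to all miRNAs (2.92% of all tested miRNAs) and 1, miR-30c-2*, without scaling (4.68%). Each of these counts includes miR-30c-2*, which was detected on 1 of 4 pregnant arrays. The cause of these shifts was not tested.

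Replicate numbers did not pair the arrays: deviations of same-numbered arrays correlated at -0.144, 0.168, -0.282 and -0.486. With the replicate block 10 miRNAs were called, miR-30c-2* (-0.61, adjusted p = 0.048) passed and miR-30a* (-0.45, adjusted p = 0.0914) did not. Signals of the star strands lie near the negative control features, which limits their precision.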
